A study of Rattus norvegicus with 20 samples.

Results

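The 10 genes described here encode the phosphatase that cyclosporine A and tacrolimus inhibit, its feedback regulators and its best known substrates in rat kidney. They are Ppp3ca, Ppp3cb and Ppp3cc, the catalytic (A) subunits of calcineurin; Ppp3r1, its regulatory (B) subunit; Rcan1 and Rcan2, the regulators of calcineurin; and Nfatc1, Nfatc2, Nfatc3 and Nfatc4, the nuclear factors of activated T cells that depend on calcium. Members were chosen by gene symbol in either of 2 deposited tables and carried to the other table by Ensembl identifier, which gave 10 of 32907 listed genes. All 10 were in both tables, Nfatc1 as RGD1560225 in the cyclosporine A table, and all 10 had enough fragments to be tested in every comparison.

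Bulk RNA was sequenced from whole kidneys of adult male wild-type Wistar rats, aged 10 to 12 weeks. Each rat carried an osmotic minipump under the skin for 28 days. One pair of groups received cyclosporine A (n = 4) or saline (n = 4). The other received tacrolimus (n = 6), dosed for a target trough of 3.5 ng/ml, or its solvent, 75% polyethylene glycol with 25% DMSO, called DMSO/PEG here (n = 6). The libraries of a group are numbered as replicates, and the labels do not state that each is a separate animal, so p-values measure the spread between these libraries. The study compared the effects of the drugs on the kidney. Since no vehicle or table is common to both drugs, an effect of drug, vehicle or table cannot be told apart where the drugs are set side by side.

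Calcineurin is a serine/threonine phosphatase switched on by calcium and calmodulin. It removes phosphates from NFAT proteins, which then enter the nucleus and act on genes together with partners such as AP-1. Cyclosporine A binds cyclophilin and tacrolimus binds FKBP12, and either complex blocks the phosphatase. Rcan1 protein binds and restrains calcineurin, and a short Rcan1 transcript is itself a classical NFAT target, so Rcan1 mRNA is widely used as a readout of calcineurin activity. In the kidney, Ppp3ca and Ppp3cb are the broadly expressed catalytic subunits, while Ppp3cc is best known from testis.

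The 250 bases before the RefSeq start of the gene are printed for Rcan1, the NFAT target, and for Rcan2 and Ppp3cb, the genes that Rcan1 is set against below (RefSeq, build GRCr8, not the build of the expression tables). Each reads 5′ to 3′ on the strand of the gene, in lower case, with every GGAAA or its reverse complement TTTCC, the core that NFAT proteins recognise, in capitals. Rcan1 lies at chr11:45118237-45118486 on the minus strand, Rcan2 at chr9:24672190-24672439 on the minus strand and Ppp3cb at chr15:3809012-3809261 on the plus strand.
Rcan1: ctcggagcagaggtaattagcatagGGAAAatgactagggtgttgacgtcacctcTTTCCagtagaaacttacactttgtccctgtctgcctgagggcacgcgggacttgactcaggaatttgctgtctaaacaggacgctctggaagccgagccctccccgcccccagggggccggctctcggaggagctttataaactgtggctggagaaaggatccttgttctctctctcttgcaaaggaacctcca
Rcan2: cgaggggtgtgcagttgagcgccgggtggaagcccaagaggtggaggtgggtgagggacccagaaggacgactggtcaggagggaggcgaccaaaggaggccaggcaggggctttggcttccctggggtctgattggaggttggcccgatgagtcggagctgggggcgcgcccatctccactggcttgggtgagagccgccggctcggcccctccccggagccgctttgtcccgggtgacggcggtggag
Ppp3cb: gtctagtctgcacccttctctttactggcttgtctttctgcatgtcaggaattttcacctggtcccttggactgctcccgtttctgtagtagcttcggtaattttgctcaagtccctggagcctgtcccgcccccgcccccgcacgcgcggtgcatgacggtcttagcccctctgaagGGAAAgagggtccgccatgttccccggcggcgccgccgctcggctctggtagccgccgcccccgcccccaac

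Of the 10 genes, 6 had an entry among 33469 RefSeq promoters. Searched on both strands, GGAAA was found 2 times before Rcan1, 1 time each before Ppp3cb and Ppp3r1, and 0 times before Rcan2, Ppp3ca and Nfatc2. At least 1 match was present in 56.9% of all promoters of this length and at least 2 in 22.9%, so these counts do not set Rcan1 apart. The Rcan1 window also held 1 TGACTCA, the AP-1 site (in 4.05% of promoters), 1 TGACGTCA, the palindromic cyclic AMP response element (1.59%), and 2 matches of TATAAA that overlap each other (12.9% hold at least 1). None of these 3 was found before the other 5 genes. No match overlapped a match of another motif. The windows held 54.0% G and C for Rcan1, 62.8% for Ppp3cb and 69.2% for Rcan2, against a median of 51.2% over all promoters. A match is a string of letters and not evidence of binding.

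The libraries held 30468767 to 34308899 gene-assigned fragments in the cyclosporine A arm and 31670202 to 39358485 in the tacrolimus arm. In the former, the mitochondrial genome held 49.7% to 68.6% of them with saline and 80.2% to 90.8% with cyclosporine A, which left 10283971 to 17256748 nuclear fragments per library with saline and 2905839 to 6549282 with cyclosporine A. In the tacrolimus table the share was 10.5% to 15.9%. The deposited unit is FPKM, a fragment count divided by the length of the gene and the depth of the library. In the cyclosporine A table they are relative to all fragments, mitochondrial ones included, and were therefore also rescaled by median-of-ratios size factors, which equalise the median gene; the tacrolimus table already follows such factors. The 8 kidney genes checked, Lrp2 and Umod among them, were found in both tables. Markers of T cells summed to 0.677 to 1.48 rescaled FPKM with saline and 0.0882 to 1.68 with cyclosporine A (6 of 8 above 0, Cd5 at 0 in every library), and to 5.65 to 8.49 FPKM with DMSO/PEG and 3.73 to 6.97 with tacrolimus (7 of 8 above 0). In bulk tissue, fewer cells of a type and less RNA per cell cannot be told apart.

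In the cyclosporine A kidneys, Rcan1 was the member with the largest difference from vehicle on the log2(FPKM + 1) scale of rescaled FPKM, and it was higher. Ppp3ca and Ppp3cb were lower in all 4 drug libraries than in any vehicle library. None of the 3 passed the threshold, an adjusted p under 0.05 from limma on log2(FPKM + 1) with adjustment over all genes tested. Of the 10 members 0 were called, against 0.609% of 13455 genes (82 genes). An unadjusted p under 0.05 was reached by 3 of 10, against 16.2% of all genes, and the groups did not overlap for the same 3, against 10.9% of all genes. Of these 1 was higher and 2 were lower, against 4.81% and 6.11% of all genes. With limma's voomWithQualityWeights on the recovered fragments 1 of 10 members was called, Rcan1, against 281 of 13455 genes. The median log2 difference was 0.01 over the members and -0.00027 over all genes.

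**Figure D1:**
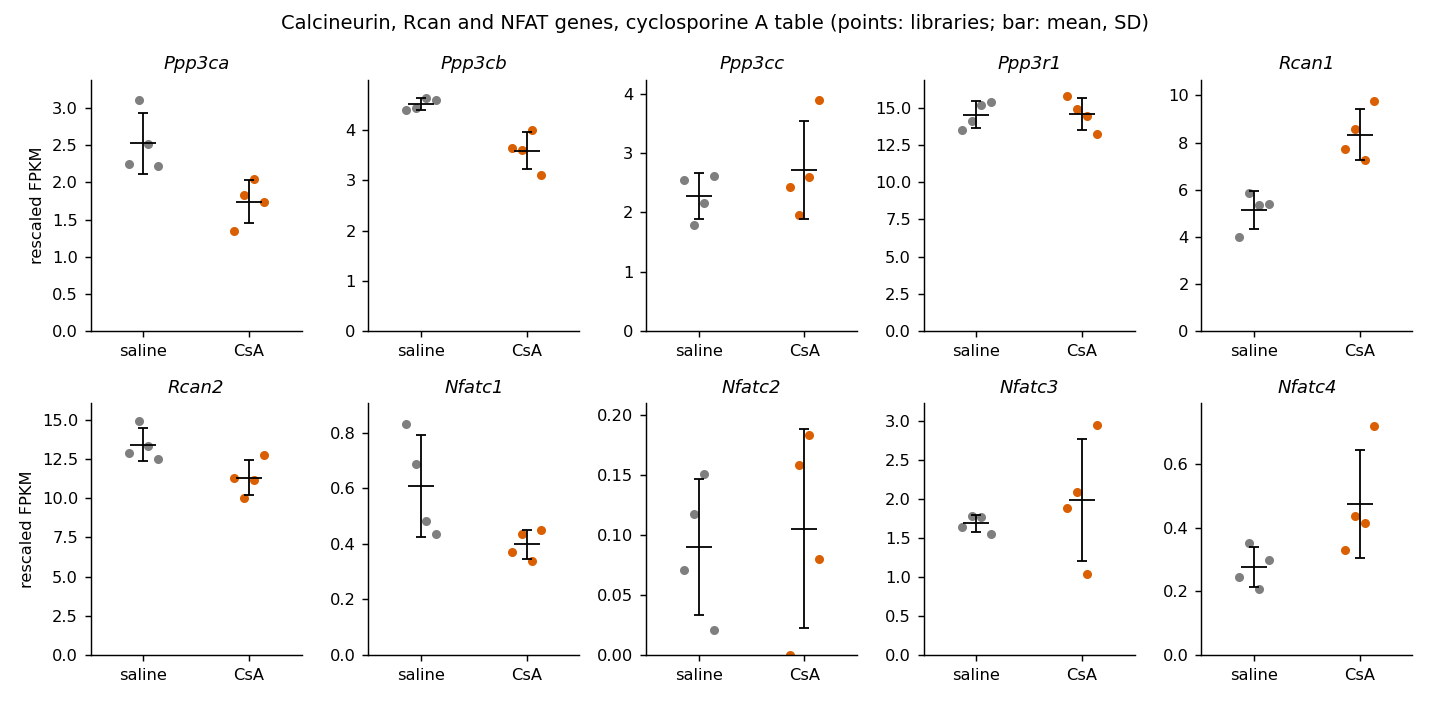
Rescaled FPKM (vertical axis, from 0) of the 10 genes in the 4 saline and 4 cyclosporine A (CsA) libraries; points are libraries and bars are the mean and SD. Rcan1 lies higher in every CsA library than in any saline library, Ppp3ca and Ppp3cb lie lower, and the other 7 genes overlap.

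Rcan1 (ENSRNOG00000001979, rn6 chromosome 11, 32539683 to 32550539, minus strand) stood at 4.00, 5.84, 5.35 and 5.38 rescaled FPKM in saline replicates 1 to 4. With cyclosporine A it stood at 7.73, 8.57, 7.27 and 9.77. Every drug library was above every vehicle library. The means were 5.14 ± 0.795 (SD, n = 4) and 8.34 ± 1.10 (SD, n = 4), a difference of 62.1%. On the log2(FPKM + 1) scale the difference was 0.61 with a standard error of 0.14 (95% interval 0.30 to 0.91, limma unadjusted p = 0.00138, adjusted p = 0.0809). It was called with limma's voomWithQualityWeights (0.68, adjusted p = 0.0384), which gives each library a weight. The values rest on 286 to 607 fragments per library.

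The mitochondrial share of the libraries differed between the groups as Rcan1 did. Saline replicate 1 had both the lowest share (49.7%) and the lowest rescaled Rcan1 of the 8 libraries. Cyclosporine A replicate 4 had both the highest share (90.8%) and the highest Rcan1. Among the drug libraries the order was not the same throughout: replicate 2, with the lowest share (80.2%), had the second highest Rcan1 (8.57), above replicates 1 and 3. With the share added to the model as a covariate, a setting chosen after seeing the data, the difference was 0.03 with a standard error of 0.29 (95% interval -0.62 to 0.68, limma unadjusted p = 0.912). In that model limma called 0 of 13455 genes, with 418 at an unadjusted p under 0.05. The same model gave larger differences than the one without the share for Ppp3ca (-0.61, 95% interval -1.40 to 0.18) and Rcan2 (-0.59, 95% interval -1.15 to -0.03, unadjusted p = 0.0423), and a smaller one for Ppp3cb (-0.16). The share does not overlap between the groups, so drug and share cannot be told apart in these 8 libraries.

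**Figure D2:**
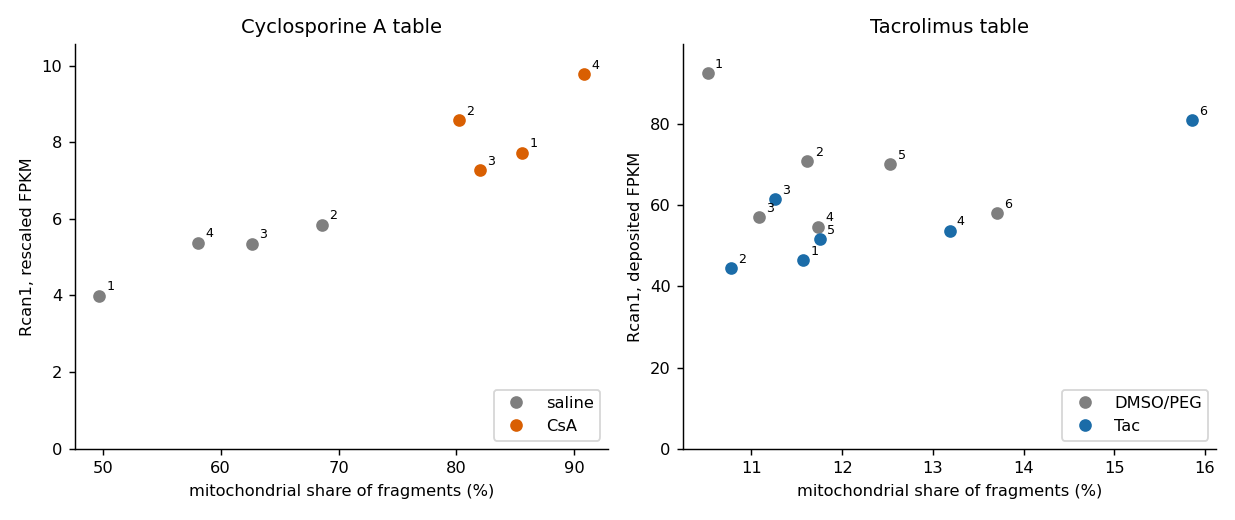
Rcan1 FPKM (vertical axis, from 0; rescaled on the left, deposited on the right) against the mitochondrial share of fragments (horizontal axis, percent, not from 0), 1 point per library with its replicate number. On the left the 4 CsA libraries lie at 80.2% to 90.8% and the 4 saline libraries at 49.7% to 68.6%; on the right the tacrolimus (Tac) and DMSO/PEG libraries overlap on both axes.

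The direction of Rcan1 depended on the scaling. On deposited FPKM it was 8.06, 7.39, 8.19 and 9.24 in saline replicates 1 to 4 and 4.84, 7.08, 5.43 and 4.19 with cyclosporine A, lower in every drug library. The difference was -0.55 (standard error 0.25, limma adjusted p = 0.0502), against a median of -0.89 over all 13455 genes. It passed the threshold without saline replicate 2 (adjusted p = 0.0432), without cyclosporine A replicate 2 (0.0275) and with no filter on low values (0.0309). On this scale 7 of 10 members were called, all lower, where 80.9% of all genes were called lower. The 7 were Ppp3ca (-1.24, limma adjusted p = 0.000562), Ppp3cb (-1.32), Ppp3cc (-0.80), Ppp3r1 (-1.24), Rcan2 (-1.46), Nfatc1 (-0.65) and Nfatc3 (-0.75). Nfatc2 (-0.08) and Nfatc4 (-0.15) were not called. In 8 of 10 members every drug library was lower than every vehicle library, as in 67.9% of all genes, and the members' median was -0.77.

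Rcan2 (ENSRNOG00000010350, rn6 chromosome 9, 19518558 to 19749145, minus strand), a paralogue of Rcan1, was 12.9, 14.9, 13.4 and 12.5 rescaled FPKM in saline replicates 1 to 4. It was 11.3, 10.03, 11.1 and 12.8 with cyclosporine A. The ranges overlapped, through cyclosporine A replicate 4. The difference was -0.23 (standard error 0.11, limma adjusted p = 0.335).

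Among the catalytic subunits, Ppp3ca (ENSRNOG00000009882, rn6 chromosome 2, 241909832 to 242184854, plus strand) was 2.25, 3.10, 2.52 and 2.22 rescaled FPKM in saline replicates 1 to 4 and 1.35, 1.83, 2.04 and 1.74 with cyclosporine A. The groups did not overlap, and the drug mean differed by -31.1% (log2 difference -0.36, standard error 0.14, limma adjusted p = 0.241). Ppp3cb (ENSRNOG00000054782, rn6 chromosome 15, 4209703 to 4236895, plus strand) was 4.39, 4.43, 4.64 and 4.59 with saline, the smallest spread relative to its mean among the 10 genes. With cyclosporine A it was 3.65, 3.61, 4.00 and 3.09, again with no overlap (-0.27, standard error 0.11, adjusted p = 0.277). Ppp3cc (ENSRNOG00000009745, rn6 chromosome 15, 51896615 to 51967897, minus strand) was 2.54, 1.79, 2.15 and 2.62 with saline and 2.43, 1.96, 2.60 and 3.89 with the drug. Its groups overlapped, and the difference was 0.17 (95% interval -0.22 to 0.56, adjusted p = 0.691), most of it from cyclosporine A replicate 4: without that library it was 0.03.

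Ppp3r1 (ENSRNOG00000043210, rn6 chromosome 14, 100311173 to 100360879, plus strand), the B subunit used in most tissues, was the member with the smallest difference. Its rescaled FPKM was 13.5, 14.1, 15.2 and 15.4 with saline and 15.8, 14.9, 14.5 and 13.2 with cyclosporine A. The log2 difference was 0.0065 (95% interval -0.21 to 0.23, limma adjusted p = 0.983), and its sign turned with TMM scaling (-0.026). RefSeq lists pseudogene copies of Ppp3r1 and Ppp3cb, so reads of these genes may have been split between copies.

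Among the NFAT genes, Nfatc1 (ENSRNOG00000017146, rn6 chromosome 18, 77203525 to 77322690, minus strand) was 0.830, 0.688, 0.483 and 0.435 rescaled FPKM with saline and 0.370, 0.434, 0.339 and 0.449 with cyclosporine A, on 19 to 179 fragments per library. Its 2 highest libraries were saline replicates 1 and 2, and the groups overlapped (-0.20, limma adjusted p = 0.400). Nfatc3 (ENSRNOG00000054264, rn6 chromosome 19, 38039564 to 38114003, plus strand) was 1.65, 1.78, 1.78 and 1.55 with saline. With cyclosporine A it ran from 1.04 in replicate 3 to 2.95 in replicate 4, so the drug libraries spread on both sides of the vehicle (0.12, adjusted p = 0.820; -0.03 without cyclosporine A replicate 4).

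Nfatc4 (ENSRNOG00000020482, rn6 chromosome 15, 34493138 to 34504326, plus strand) was 0.245, 0.351, 0.206 and 0.299 rescaled FPKM with saline and 0.330, 0.437, 0.414 and 0.720 with cyclosporine A. All 4 drug libraries were above the vehicle mean, but the ranges overlapped (0.20, standard error 0.10, limma adjusted p = 0.361). The drug mean differed by 72.7% of the vehicle mean, with replicate 4 far above the other 3; without that library the log2 difference was 0.13. Nfatc2 (ENSRNOG00000012175, rn6 chromosome 3, 165245238 to 165360292, minus strand), a main NFAT of T cells, had 0 to 27 fragments per library and no fragment in cyclosporine A replicate 1. Its mean was 0.0898 ± 0.0566 (SD, n = 4) with saline and 0.105 ± 0.0829 (SD, n = 4) with the drug, and no difference was detectable at this depth.

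Cyclosporine A replicate 4 was the highest of the 4 drug libraries for Ppp3cc, Rcan1, Rcan2, Nfatc1, Nfatc3 and Nfatc4 and the lowest for Ppp3cb and Ppp3r1. It also had the highest mitochondrial share and the fewest nuclear fragments of the 8, and the part of this in the members' values was not tested. Markers of urothelium, the lining of the renal pelvis, moved with the cyclosporine A group: their 4 genes summed to 1.62 to 3.84 rescaled FPKM with saline and 6.75 to 15.97 with the drug. Of the 8 kidney genes, Umod of the thick ascending limb fell (-1.36, limma adjusted p = 0.0491). Slc12a1 of the same segment (-0.95, adjusted p = 0.0512) and Lrp2 of the proximal tubule (-0.58, adjusted p = 0.186) were not called, but their groups did not overlap either; the other 5 overlapped. Of the T cell markers, Cd3g averaged 0.402 rescaled FPKM with saline and 0.0298 with the drug, with no overlap, Cd3d was listed at 0 in all 4 drug libraries, and Cd2 reached 0.849 in 1 of them; of these markers Lck alone had enough fragments to be tested, and it was not called. The part of these cell types in the members' differences was not tested.

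With tacrolimus, no member separated drug from vehicle. Of the 10 genes 0 were called on deposited FPKM, against 0.303% of 15493 genes (47 genes). None reached an unadjusted p under 0.05, which 8.58% of all genes did. With voomWithQualityWeights 0 members were called, against 121 of 15493 genes. The groups overlapped for all 10 members, where they did not overlap for 0.975% of all genes. The median log2 difference was 0.04 over the members and -0.00033 over all genes.

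**Figure D3:**
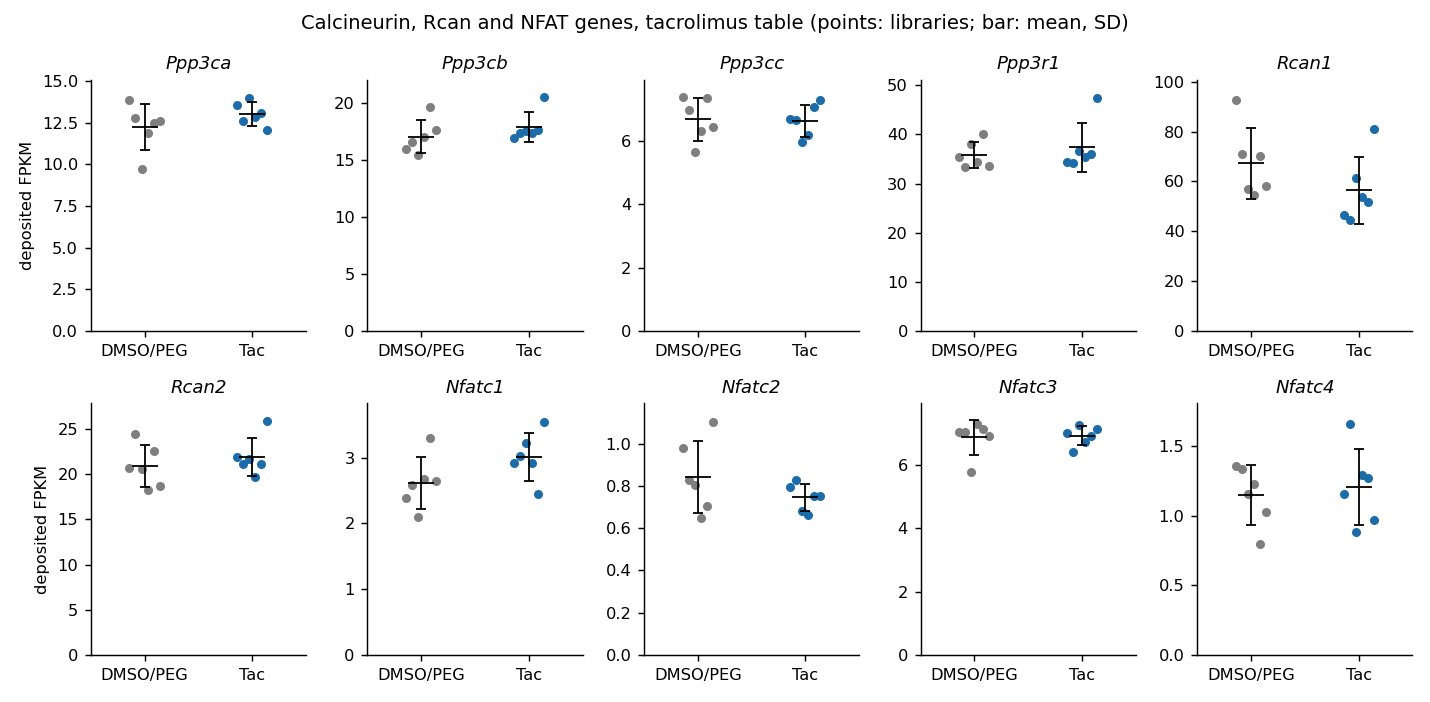
Deposited FPKM (vertical axis, from 0) of the 10 genes in the 6 DMSO/PEG and 6 tacrolimus (Tac) libraries; points are libraries and bars are the mean and SD. The groups overlap for every gene, and Tac replicate 6, the last point of its group, lies highest for Ppp3cb, Ppp3r1 and Rcan2.

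Rcan1 ranged from 54.7 to 92.6 FPKM with DMSO/PEG (median 64.1, n = 6) and from 44.6 to 80.9 with tacrolimus (median 52.7, n = 6). The highest library of all 12 was DMSO/PEG replicate 1, and the highest with tacrolimus was replicate 6; the other 5 tacrolimus libraries lay below the vehicle mean. The log2 difference was -0.25 with a standard error of 0.15 (95% interval -0.58 to 0.08, limma adjusted p = 0.713). Without tacrolimus replicate 6 the unadjusted p was 0.0169 and the difference -0.36, which also failed the threshold after adjustment (0.410). Without DMSO/PEG replicate 1 the difference was -0.16 (unadjusted p = 0.282), so single libraries move it both ways. Tacrolimus replicate 6 had the highest mitochondrial share of the 12 (15.9%) and the fewest nuclear genes detected (17853). DMSO/PEG replicate 1 had the lowest share (10.5%). With the share as a covariate the difference was -0.29.

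Ppp3r1 ranged from 33.4 to 40.04 FPKM with DMSO/PEG (median 34.9) and from 34.1 to 47.5 with tacrolimus (median 35.7), the top value in replicate 6. Ppp3cb ranged from 15.4 to 19.6 (median 16.8) and from 16.9 to 20.5 (median 17.5). Ppp3ca ranged from 9.74 to 13.9 (median 12.5) and from 12.1 to 14.003 (median 12.96). In both catalytic genes the drug range lay within or just above the vehicle range, with log2 differences of 0.07 for Ppp3cb and 0.09 for Ppp3ca (95% intervals -0.07 to 0.20 and -0.07 to 0.25). Without tacrolimus replicate 6 Ppp3cb was 0.03, without DMSO/PEG replicate 3 it was 0.04 and Ppp3ca 0.03, and without DMSO/PEG replicate 5 Ppp3cb was 0.11. Ppp3cc ranged from 5.63 to 7.38 and from 5.95 to 7.28, a difference of -0.0067. Rcan2 ranged from 18.3 to 24.4 and from 19.7 to 25.9, a difference of 0.07 (limma adjusted p = 0.893; 0.02 to 0.11 without single libraries).

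Of the NFAT genes, Nfatc1 had the lowest p with tacrolimus: it ranged from 2.09 to 3.29 FPKM with vehicle (median 2.62) and from 2.45 to 3.53 with the drug (median 2.97). The difference was 0.15 (95% interval -0.03 to 0.34, limma adjusted p = 0.686). Nfatc2 ranged from 0.646 to 1.10 with vehicle and had a median of 0.753 with the drug, with all 6 drug libraries below the vehicle mean of 0.843 (-0.07, adjusted p = 0.832; -0.04 without DMSO/PEG replicate 6). Beside it, the summed T cell markers overlapped between the groups but reached lower with tacrolimus; 0 of 6 tested were called, 2 had an unadjusted p under 0.05 (Cd3g, -0.53, limma adjusted p = 0.171, and Cd3d, -0.33, adjusted p = 0.448), and Cd2, Cd5 and Cd8a were below the vehicle mean in 6 of 6 drug libraries. Their part in the NFAT values was not tested. Nfatc3 ranged from 5.79 to 7.29 and from 6.43 to 7.26, a difference of 0.01. Nfatc4 ranged from 0.794 to 1.36 and from 0.883 to 1.66, a difference of 0.03. The intervals of the 10 members thus bound a tacrolimus effect on any of them to the range of -0.58 to 0.34 on the log2(FPKM + 1) scale, each taken by itself.

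To ask whether the drugs differed in their effect on these genes, the tacrolimus change was subtracted from the cyclosporine A change on rescaled FPKM. Rcan1 was called in this comparison on rescaled FPKM, with a difference of 0.86 (standard error 0.21, 95% interval 0.43 to 1.29, limma-based adjusted p = 0.0383), while on deposited FPKM in both tables, a setting added after seeing the data, the sign turned and the call was lost (-0.29, adjusted p = 0.358). It was the 1 member of 10 that was called, against 1.61% of 13392 genes (216 genes), or 0.851% called higher as Rcan1 was, and 5 of 10 had an unadjusted p under 0.05, against 16.0% of all genes. The call was lost without saline replicate 1 (0.76, adjusted p = 0.108), 2 (0.91, 0.0562), 3 (0.88, 0.0707) or 4 (0.88, 0.0816). It was also lost without cyclosporine A replicate 1 (0.89, 0.0588), DMSO/PEG replicate 1 (0.76, 0.0533) or 2 (0.84, 0.055) and tacrolimus replicate 2 (0.80, 0.0527). With all libraries it was lost with no filter on low values (0.86, adjusted p = 0.0543). These are not all of the losses: of 28 alternatives 16 kept the call, 11 lost it and in 1 the sign turned. With the mitochondrial share as a covariate in both tables it was 0.32 (95% interval -0.37 to 1.02, adjusted p = 0.999), where limma called 0 of 13392 genes and 446 had an unadjusted p under 0.05. The range over the 20 libraries left out in turn was 0.76 to 0.97, with adjusted p from 0.0163 to 0.108.

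The other 4 members with an unadjusted p under 0.05 pointed the opposite way, with a lower change under cyclosporine A than under tacrolimus. They were Ppp3ca (-0.45, 95% interval -0.79 to -0.12, limma-based adjusted p = 0.165), Nfatc1 (-0.35, adjusted p = 0.204), Ppp3cb (-0.34, adjusted p = 0.209) and Rcan2 (-0.30, adjusted p = 0.281). On deposited FPKM in both tables these 4 and Ppp3r1, Ppp3cc and Nfatc3 were called lower, as were 10027 of all 13392 genes. Ppp3r1 (-0.05), Ppp3cc (0.17), Nfatc2 (0.09), Nfatc3 (0.10) and Nfatc4 (0.17) had intervals that included 0 on rescaled FPKM.

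**Figure D4:**
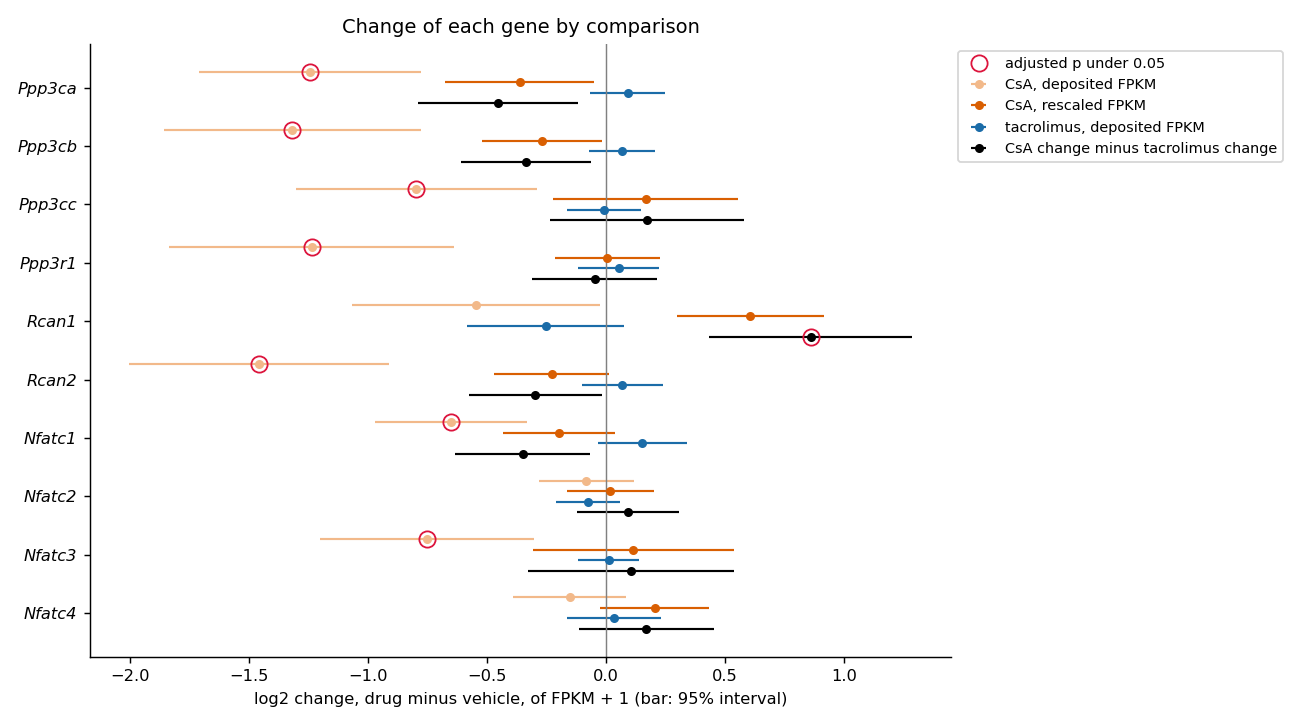
Change of each gene, drug minus vehicle, as a log2 difference of FPKM + 1 (horizontal axis) with its 95% interval, for cyclosporine A (CsA) on deposited and rescaled FPKM, for tacrolimus, and for the CsA change minus the tacrolimus change; a ring marks an adjusted p under 0.05. Rescaling moves every CsA point to the right, and Rcan1 is the 1 gene ringed in the difference between the drugs.

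A ratio of 2 genes within a library does not depend on how the library is scaled. The 8 ratios below were tested with exact 2-sided permutation tests over libraries and adjusted over the 8. Rcan1 to Ppp3cb was 0.911, 1.32, 1.15 and 1.17 in saline replicates 1 to 4 and 2.12, 2.38, 1.82 and 3.16 with cyclosporine A. All drug libraries were above all vehicle libraries, 2.05-fold on average (exact permutation p = 0.0286, adjusted 0.0866; with 70 arrangements no smaller p can occur). Rcan1 to Rcan2 was 0.310, 0.392, 0.401 and 0.430 with saline and 0.683, 0.855, 0.653 and 0.765 with the drug. These did not overlap either, and the drug ratio was 1.93-fold higher (exact permutation p = 0.0286, adjusted 0.0866). Relative to Rcan2 and to Ppp3cb, then, Rcan1 was higher in all 4 cyclosporine A libraries. The adjusted p of neither ratio was under 0.05. On rescaled FPKM the drug means of Ppp3cb (-20.5%) and Rcan2 (-15.6%) were themselves lower, so the folds hold both changes. A ratio also does not remove the difference in mitochondrial share between the groups.

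With tacrolimus the same ratios lay the other way. Rcan1 to Ppp3cb ranged from 3.22 to 5.79 with DMSO/PEG and from 2.56 to 3.94 with tacrolimus, a fold of 0.796 (exact permutation p = 0.0628, adjusted 0.104). Rcan1 to Rcan2 ranged from 2.77 to 4.47 and from 2.10 to 3.12, also a fold of 0.796 (exact permutation p = 0.0325, adjusted 0.0866). The groups overlapped in both. Without DMSO/PEG replicate 1 the unadjusted p of the latter was 0.0649, and without tacrolimus replicate 6 that of the former was 0.0173.

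The catalytic subunits kept a ratio to each other that differed by less than the spread between libraries: Ppp3ca to Ppp3cb ran from 0.485 to 0.701 with saline and from 0.371 to 0.563 with cyclosporine A (exact permutation p = 0.4), and from 0.631 to 0.867 with DMSO/PEG and 0.587 to 0.802 with tacrolimus (exact permutation p = 0.784). Nfatc3 to Nfatc1 ran from 1.99 to 3.68 with saline and from 3.06 to 6.58 with cyclosporine A (1.65-fold, exact permutation p = 0.0857, adjusted 0.114). It ran from 2.17 to 2.96 with DMSO/PEG and from 2.02 to 2.83 with tacrolimus (fold 0.872, exact permutation p = 0.0649, adjusted 0.104). Without single libraries, the last difference was -0.26 to -0.16 on the log2 scale, with exact permutation p from 0.0173 (without tacrolimus replicate 5) to 0.126 (without tacrolimus replicate 6); without DMSO/PEG replicate 5 it was also under 0.05.

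**Figure D5:**
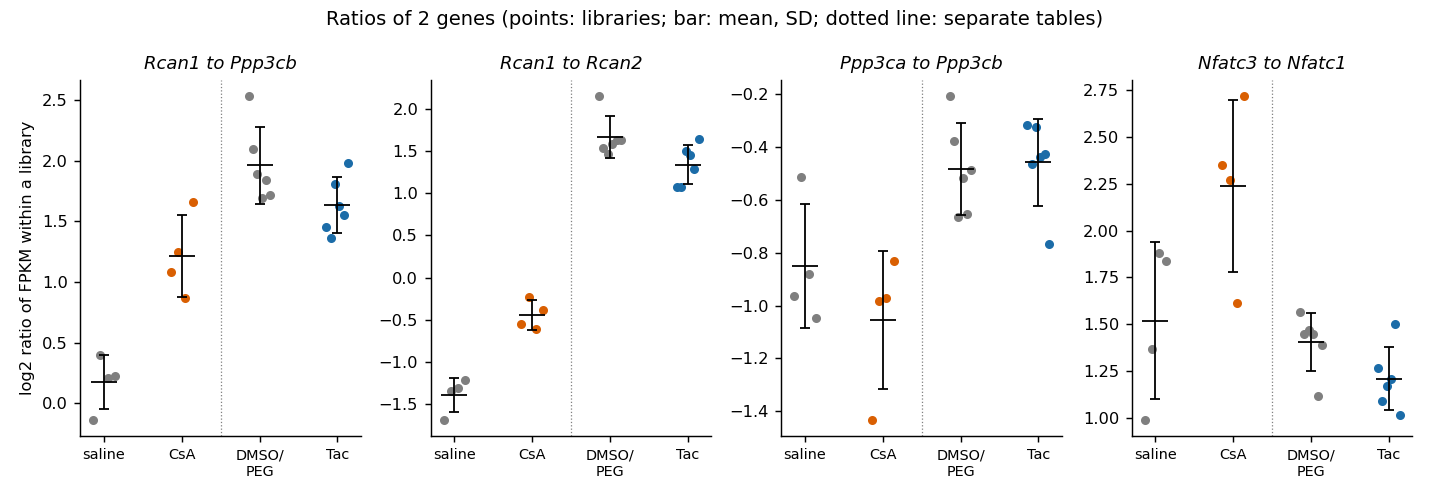
Log2 ratio of the FPKM of 2 genes within a library (vertical axis, not from 0) for 4 gene pairs in the 4 groups; points are libraries, bars are the mean and SD, and the dotted line separates the 2 tables. The CsA libraries lie above the saline libraries for Rcan1 to Ppp3cb and Rcan1 to Rcan2, and the tacrolimus (Tac) libraries overlap DMSO/PEG in all 4 panels.

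The order of levels differed between the vehicles of the 2 tables, which were normalized separately and are given side by side with no test. With DMSO/PEG the order by mean FPKM (n = 6) was Rcan1 (67.2), Ppp3r1 (35.8), Rcan2 (20.9), Ppp3cb (17.04), Ppp3ca (12.2), Nfatc3 (6.88), Ppp3cc (6.68), Nfatc1 (2.61), Nfatc4 (1.15) and Nfatc2 (0.843). The ranges of neighbours overlapped for Rcan2 and Ppp3cb, for Nfatc3 and Ppp3cc, and for Nfatc4 and Nfatc2. With saline the order by mean rescaled FPKM (n = 4) was Ppp3r1 (14.5), Rcan2 (13.4), Rcan1 (5.14), Ppp3cb (4.51), Ppp3ca (2.53), Ppp3cc (2.28), Nfatc3 (1.69), Nfatc1 (0.609), Nfatc4 (0.275) and Nfatc2 (0.0898). There the overlapping neighbours were Ppp3r1 and Rcan2, Rcan1 and Ppp3cb, and Ppp3ca and Ppp3cc. Rcan1 was thus first among the 10 in one vehicle and the third in the other, and its ratio to Ppp3cb, which no scaling touches, averaged 0.18 with saline and 1.96 with DMSO/PEG on the log2 scale. For 6 of the 10 genes, Rcan1 and Ppp3cb not among them, the deposited cyclosporine A values give whole fragments only with a shorter gene length than the one listed, so levels of those 6 genes per length are less certain.

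The order changed little within a table. With cyclosporine A the first 4 places were unchanged, but the 3 leading genes no longer overlapped with their neighbours, and Ppp3ca went from the fifth to the seventh place. With tacrolimus the order of all 10 was that of the vehicle, with Rcan1 (56.5) and Ppp3r1 (37.4) now overlapping and Nfatc4 (1.21) and Nfatc2 (0.746) no longer so.

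The genes whose pattern was most like that of Rcan1 were ranked by Pearson r of log2(FPKM + 1) over all libraries of a table. Over the 8 libraries of the cyclosporine A table they were Mt-nd4 (r = 0.984), Hnrnpdl (0.981) and Mt-nd3 (0.971), of which Mt-nd4 and Mt-nd3 are encoded by the mitochondrial genome. The groups are apart in Rcan1, so these r hold the difference between groups as well as the spread within them. Over the 12 libraries of the tacrolimus table they were Ndc1 (0.966), Slbp (0.924) and Snx6 (0.873). For Ppp3ca they were Wsb2 (0.963), Acad8 (0.962) and C1galt1 (0.961) over 8 libraries and C1galt1 (0.932), Pias1 (0.930) and Csnk1a1 (0.928) over 12, with C1galt1 in both. These are the top of rankings of 9736 and 12879 genes, given as a description.

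A wider list of 52 genes covered the pathway around the members. On rescaled FPKM with cyclosporine A 0 of the 41 tested were called and 3 had an unadjusted p under 0.05, where 16.2% of all genes did, with a median of 0.04 against -0.00027 over all genes. With tacrolimus 0 of 45 were called and 5 had an unadjusted p under 0.05, where 8.58% of all genes did, with a median of 0.03. In the difference between the drugs 0 of 41 were called, with 4 at an unadjusted p under 0.05, where 16.0% of all genes had one. Groups that do not overlap, as given below for single genes, were found for 10.9% of all genes with cyclosporine A and 0.975% with tacrolimus. On the deposited scale 34 of 41 were called lower with cyclosporine A, a share near that of all genes.

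By role, the calmodulins, which carry calcium to calcineurin, had 0 of 3 called with either drug; Calm2 was 18.5 ± 3.09 rescaled FPKM (SD, n = 4) with saline and 25.1 ± 6.98 (SD, n = 4) with cyclosporine A, and 58.1 ± 7.44 FPKM (SD, n = 6) with DMSO/PEG and 48.8 ± 7.50 (SD, n = 6) with tacrolimus (limma adjusted p = 0.323 and 0.534). Of the Stim and Orai genes of store-operated calcium entry 0 of 5 were called; Stim2 differed by 0.16 with tacrolimus (adjusted p = 0.422). Of the 6 other subunits and regulators, 4 were tested with cyclosporine A and 5 with tacrolimus. Chp1, a relative of the B subunit that inhibits calcineurin, was 15.2 ± 0.796 with saline and 11.7 ± 1.74 with cyclosporine A, with no overlap (-0.37, adjusted p = 0.181). Rcan3, the remaining Rcan gene, was 0.616 ± 0.404 with saline and 0.793 ± 0.837 with cyclosporine A (0.07, adjusted p = 0.938), and 5.45 ± 0.780 FPKM with DMSO/PEG and 5.58 ± 0.509 with tacrolimus (0.04, adjusted p = 0.957). It falls outside the rule for named genes and is given to complete the family. Chp2 was 0.428 ± 0.0961 FPKM with DMSO/PEG and 0.246 ± 0.0688 with tacrolimus, with no overlap in 6 against 6 libraries (-0.20, adjusted p = 0.219).

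Of 11 kinases and export factors that send NFAT out of the nucleus 0 were called with either drug, and Csnk1e differed by 0.14 with tacrolimus (limma adjusted p = 0.454). Of 10 other calcineurin substrates 0 were called; Mef2c differed by 0.29 with cyclosporine A (adjusted p = 0.352) and Crtc2 by 0.12 with tacrolimus (adjusted p = 0.534). Nfat5, the tonicity-responsive relative that lacks the calcineurin docking region, differed by 0.33 with cyclosporine A and by -0.0024 with tacrolimus and was not called; like Rcan3 it is given outside the rule for named genes, as the 1 gene of its list. Of 16 NFAT partners and targets 7 were tested with cyclosporine A and 10 with tacrolimus, since T cell cytokines such as Il2 and Ifng were at or near 0. Fos, an AP-1 partner of NFAT, was 0.339 ± 0.272 rescaled FPKM with saline and 1.29 ± 0.672 with cyclosporine A, with no overlap (0.75, adjusted p = 0.126). With the mitochondrial share as a covariate the difference of Fos was -0.20. Junb, another AP-1 gene, was 7.21 ± 1.35 and 10.4 ± 0.899, also with no overlap (0.48, adjusted p = 0.130). With tacrolimus Fos differed by 0.26 and Junb by 0.20 (adjusted p = 0.711 and 0.717).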

How the data were processed

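Values were FPKM in 2 tables the authors deposited, 1 per drug with its vehicle, judged from the values and the file headers. Alignment used HISAT2 with rn6 as the build, per the submitters' processing notes; the counter, annotation release and strand setting are not given in the sources used here. Fragments were recovered from the deposited FPKM: 74.1% of cyclosporine A values above 0 and 100.0% of tacrolimus values were whole (within 0.001 fragment) with the listed length, and 4445 genes of the former were whole with a shorter one. Rescaled FPKM was computed from the fragments with median-of-ratios size factors, a choice made with the mitochondrial share of the libraries known.

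Genes needed 10 fragments in as many libraries as the smaller group and 15 in total. limma 3.58.1 (R 4.3.3, trend) was fitted to log2(FPKM + 1) with group as the term and Benjamini-Hochberg adjustment over all genes tested; fold changes on this scale understate the change of low genes. The difference between drugs used both standard errors with Satterthwaite degrees of freedom. Single ratios used exact permutation tests. The fits were checked on simulated data. voomWithQualityWeights on the recovered fragments, other scalings, filters and pseudocounts, a replicate block and leaving out each library were alternatives. Libraries of a group differed by a chi-square per degree of freedom of at least 16.7, so none was a copy of another.

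Members and lists were chosen with earlier results of these data known. Named were all 10 members; of the wider list, genes called and the 5 of smallest p for each drug; and the 3 genes of highest Pearson r with Rcan1 and Ppp3ca, at a mean of at least 1 FPKM. Marker lists not given by value above were as follows. For cyclosporine A on rescaled FPKM, kidney genes summed to 507 to 796 with saline and 311 to 516 with the drug (1 of 8 lower, Umod), and 0 genes were called in the macrophage, endothelial, smooth muscle and adipocyte lists; no gene of the B cell and skeletal muscle lists had enough fragments to be tested. With tacrolimus 1 kidney gene was lower (Slc12a3) and 0 genes of the other lists were called.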

Additional observations from a re-analysis of the deposited data

Results flagged for a closer look

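Among 40 groups of libraries checked (10 genes in 4 groups), 4 had 1 library farther from the rest than the spread of the others would give in 1 of 20 groups by chance. Tacrolimus replicate 6 was above its group for Ppp3cb (20.5 FPKM, the others 16.9 to 17.6), Ppp3r1 (47.5, the others 34.1 to 36.7) and Rcan2 (25.9, the others 19.7 to 21.9). The same library had the highest Rcan1 of its group (80.9 FPKM), the highest mitochondrial share of the 12 (15.9%) and the fewest nuclear genes detected (17853); the part of these in its values was not tested. DMSO/PEG replicate 3 was below its group for Nfatc3 (5.79 FPKM, the others 6.93 to 7.29), and also had the lowest Ppp3ca (9.74 FPKM), Ppp3cb (15.4), Ppp3cc (5.63) and Nfatc1 (2.09) of the 12.

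The change of Rcan1 differed between the drugs in a test of the difference itself, by 0.86 on the log2(FPKM + 1) scale (limma-based adjusted p = 0.0383). The call was lost with no filter on low values (0.0543), without any 1 of the 4 saline libraries (0.0562 to 0.108) and without any of 4 other single libraries; of 28 alternatives 16 kept it, 11 lost it and in 1 the sign turned. On rescaled FPKM Rcan1 was higher in 4 of 4 cyclosporine A libraries than in any saline library, and 5 of 6 tacrolimus libraries were below the DMSO/PEG mean. On deposited FPKM in both tables the difference was -0.29, and with the mitochondrial share as a covariate 0.32.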

How the results depend on the processing

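The number of genes called with cyclosporine A on rescaled FPKM (82) became 1 with no filter on low values, 6 with the replicate block, 281 with voomWithQualityWeights and 0 with the mitochondrial share as a covariate (418 at an unadjusted p under 0.05), and 1 to 139 without single libraries. The lowest was without saline replicate 4. With tacrolimus (47) it became 121 with voomWithQualityWeights and 37 to 50 without single libraries. For the difference (216) it became 135 with no filter, 328 with voomWithQualityWeights, 0 with the covariate (446 at an unadjusted p under 0.05) and 10068 on deposited FPKM, and 27 to 267 without single libraries. On deposited FPKM with cyclosporine A (10911) it was 9872 to 11180 without single libraries. Beyond the number of genes tested or of samples, the cause was not tested. Of the count models planned on the recovered fragments, DESeq2 called Rcan1 and Fos with cyclosporine A and edgeR's quasi-likelihood test called neither; neither called a member with tacrolimus. These fits are not among the tables behind the text, so no values are given. The rescaling itself, the covariate, and deposited FPKM in both tables were chosen with the data, the mitochondrial share included, known.

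Replicate numbers did not pair the libraries: deviations of same-numbered libraries had r of -0.15 to 0.212 with cyclosporine A and saline and of -0.151 to 0.182 with tacrolimus and DMSO/PEG, and not every library correlated best with its own number. With the replicate block the difference of Rcan1 between the drugs had an adjusted p of 0.0694; the other counts were 44 with tacrolimus, 10635 on deposited FPKM and 180 for the difference.

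The sign of Rcan1 in the difference between the drugs, 0.86, turned on deposited FPKM, and those of Fos (0.75) and Calm2 (0.40) turned with the covariate; the other turned signs are of members with values of 0.20 or less. With cyclosporine A Ppp3r1 was -0.026 with TMM and -0.030 to 0.050 without single libraries. With the covariate Nfatc3 was -0.33, Nfatc4 -0.026, Fos -0.20 and Calm2 -0.29, while Ppp3ca (-0.61) and Rcan2 (-0.59) were larger. Without single libraries Nfatc2 was -0.015 to 0.066 and Nfatc3 -0.032 to 0.29. With tacrolimus Nfatc3 was -0.028 with voomWithQualityWeights and -0.031 to 0.029 without single libraries, Ppp3cc -0.048 to 0.020, Ppp3r1 -0.016 to 0.085 and Nfatc4 -0.021 to 0.078. In the difference Ppp3r1 was 0.038 with nuclear totals and -0.083 to 0.023 without single libraries; Nfatc3 was -0.33 and Nfatc4 -0.088 with the covariate, and Nfatc3 -0.043 to 0.28 without single libraries. On deposited FPKM the differences of Ppp3cc (-0.79), Rcan1 (-0.29), Nfatc2 (-0.0083), Nfatc3 (-0.76) and Nfatc4 (-0.19) turned.

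Without single libraries the log2 ratio of Rcan1 to Ppp3cb was 0.89 to 1.16 and Rcan1 to Rcan2 0.85 to 1.01 in the cyclosporine A table, where the exact permutation p of 3 against 4 libraries cannot go below 0.0571. In the tacrolimus table Rcan1 to Ppp3cb was -0.40 to -0.21, Rcan1 to Rcan2 -0.39 to -0.23, Ppp3ca to Ppp3cb -0.0090 to 0.089 and Nfatc3 to Nfatc1 -0.26 to -0.16. Members with few fragments, Nfatc2 first, could show only large changes in the cyclosporine A table.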
